A study of Homo sapiens with 21 samples.

Results

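BT474 is an established human breast cancer cell line with an amplified ERBB2 (HER2) gene that also carries estrogen and progesterone receptors. The genes described here are 7 regulators of the luminal, hormone-responsive program of such cells, picked by symbol from the deposited count table: ESR1 and PGR, which encode steroid receptors, and GATA3, FOXA1, SPDEF, TFAP2A and TFAP2C, which encode luminal transcription factors. They are 7 of the 37355 genes in the table, and each of the 7 was among the 17650 genes with enough reads to be tested. RNA was sequenced in 21 libraries, 3 in each of 7 groups that share the BT474 background and its RPMI-1640 medium with fetal bovine serum. One group was untreated, and a further 2 were exposed over 3 days to trastuzumab at 10 µg/mL or to trastuzumab plus pertuzumab, each at 10 µg/mL. The remaining groups were resistant pools grown from BT474 and held 7 days without antibody before RNA was taken. BT-TR1 and BT-TR2 were resistant to trastuzumab, and BT-TPR1 and BT-TPR2 to both antibodies. Each resistance class thus rested on 2 pools of 1 cell line. The labels do not say that the 3 libraries of a group came from separate cultures, so a p-value measures only the spread between these libraries.

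As background, the estrogen receptor alpha encoded by ESR1 is a hormone-activated transcription factor, and the progesterone receptor gene PGR is one of its classical targets. FOXA1 is a pioneer factor that opens chromatin for the receptor. GATA3 works with both at enhancers and is needed to form and keep luminal cells of the breast, SPDEF is an ETS factor of secretory epithelium, and TFAP2A and TFAP2C encode the AP-2 alpha and AP-2 gamma factors, of which the second is known to bind near ESR1 and to sustain its expression. Trastuzumab and pertuzumab bind different parts of the extracellular domain of HER2, the second at the surface used for pairing with other receptors.

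Library totals ran from 7939270 to 21746391 counts, and mitochondrial transcripts took 13.69% to 33.34% of them. Replicate 1 stood apart: across genes, its deviation from the mean of the 3 libraries of its group correlated with the GC content of the gene at r = 0.313 to 0.627 in the 7 groups, against -0.537 to 0.0828 for the other libraries. Deviations within a group balance out for each gene, so the second range is not separate evidence. Genes are not independent replicates, and these values describe the libraries only. Luminal markers (keratins, EPCAM, CDH1, claudins) were detected at 1 CPM or more in 10 of 10 cases in every group. Their summed level was 4755 to 6239 CPM in untreated cells, 3940 to 4666 CPM with trastuzumab and 3501 to 4343 CPM with both antibodies. The antibody-treated sums thus lay below all untreated ones. Of the 10 markers 0 were called with trastuzumab (edgeR), with a median log2 change of -0.41. With both antibodies 2 fell, with a median of -0.39. Of all tested genes 3.78% and 6.02% were called lower with these treatments. In the 4 pools the luminal sum lay between 4088 and 6111 CPM. CPM are counts scaled to the normalized library size. Of 8 basal and myoepithelial markers only TP63 reached 1 CPM, and the sum lay between 1.88 and 7.80 CPM. The sum of 6 immune and endothelial markers lay between 5.52 and 18.6 CPM, with PTPRC at 0 in all 3 libraries of every group but BT-TPR2. The sum of 9 mesenchymal markers moved with the groups: it was 73.0 to 89.6 CPM in untreated cells, 69.1 to 72.5 CPM with trastuzumab, 58.2 to 62.8 CPM with both antibodies and 28.1 to 55.9 CPM in the 4 pools. Of 4 tested mesenchymal markers 2 fell in BT-TPR1 and 3 in each other pool (edgeR). Of all tested genes 22.3% were called lower in BT-TR1, 12.1% in BT-TR2, 14.4% in BT-TPR1 and 16.0% in BT-TPR2. With each antibody treatment 1 of the 4 markers rose and 1 fell, where 7.48% (trastuzumab) and 12.4% (both) of all tested genes were called. The part of these marker levels in the changes of the 7 genes was not tested.

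Per kilobase of annotated exon, FOXA1 had the highest level of the 7 genes in untreated cells at 124 CPM per kb. It was followed by SPDEF at 95.4, TFAP2C at 83.3, GATA3 at 51.8, PGR at 33.9, TFAP2A at 10.4 and ESR1 at 5.88 CPM per kb. The genes also differed in how far their levels ranged between groups. The highest group mean was 4.35 times the lowest for PGR, 3.01 times for GATA3, 2.21 times for SPDEF, 1.96 times for ESR1, 1.63 times for FOXA1, 1.46 times for TFAP2C and 1.39 times for TFAP2A. A test for any difference among the 7 groups (edgeR's quasi-likelihood F test with Benjamini-Hochberg adjustment over all tested genes) called 7 of 7, where 60.2% of all tested genes were called. The adjusted p was 3.26e-09 for PGR, 7.26e-09 for GATA3, 6.16e-07 for ESR1, 1.53e-06 for FOXA1, 0.000267 for TFAP2C and 0.000325 for TFAP2A. SPDEF stood apart with 0.0285 by the same edgeR test, and its call ended without BT-TR1 replicate 2 (0.0716) or BT-TR1 replicate 3 (0.0715), in a range over all alternatives from 8.62e-16 to 0.0716.

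**Figure D1:**
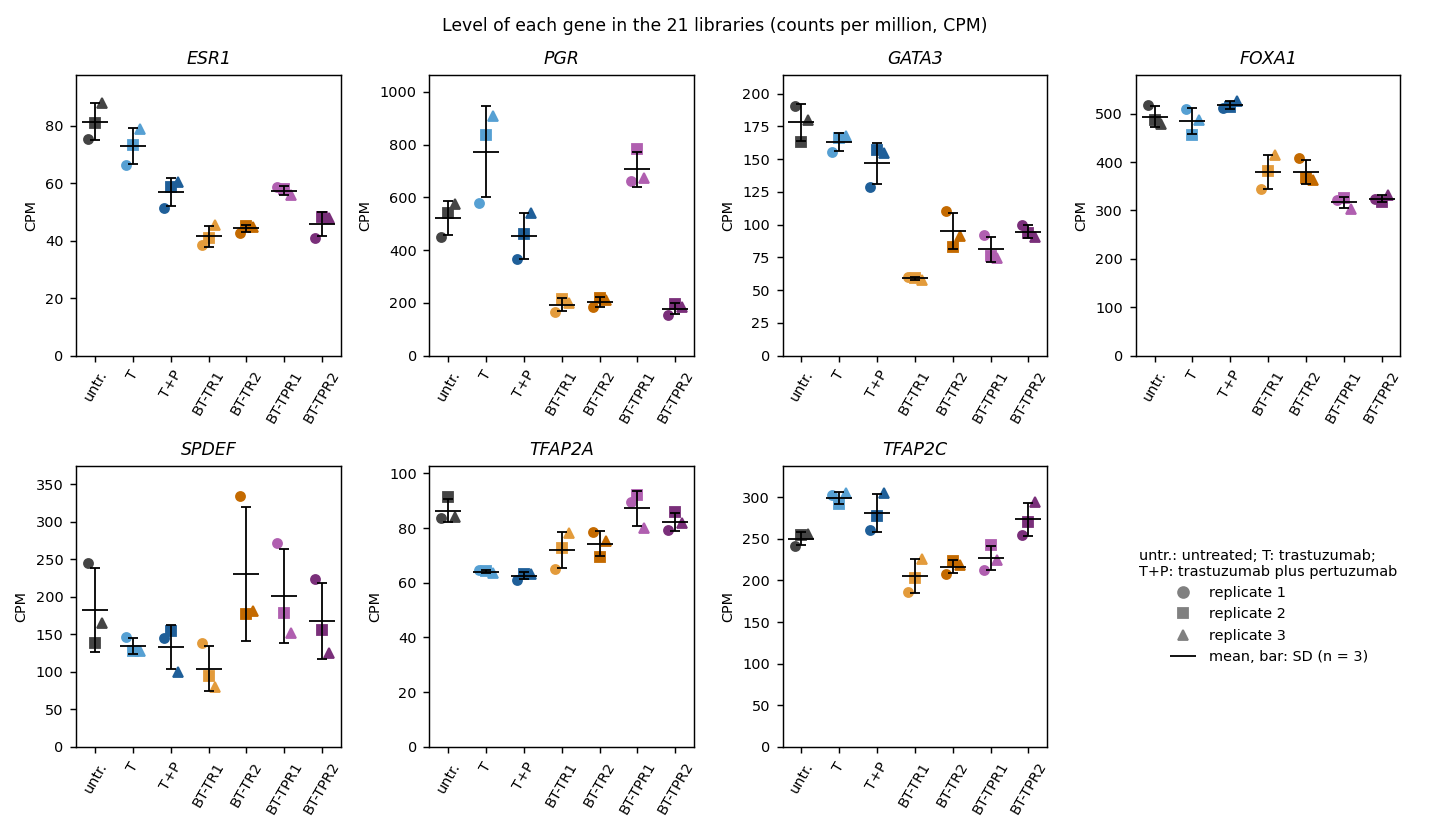
Level of each gene in CPM (read counts scaled to depth) in the 21 libraries, by group; symbols mark replicates 1, 2 and 3, and the bar gives the mean and SD of 3 libraries. GATA3 and FOXA1 are lower in each of the 4 resistant pools than in untreated or antibody-treated cells, while PGR is high in BT-TPR1 and low in the other pools.

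The DNA upstream of a RefSeq transcription start is printed for ESR1, GATA3 and FOXA1, which fell in each of the 4 resistant pools, and for TFAP2A, which fell with both antibody treatments. RefSeq windows on GRCh38.p14 were at hand for 6 of the 7 genes, and the stretch shown is the part that lies outside the annotated exons, 5′ to 3′ on the strand of the gene. Capitals mark matches, on either strand, to GGTCA (the core bound by the estrogen receptor), GATAA (GATA factors), TGTTTAC (forkhead factors) and GCCNNNGGC (AP-2 factors).
ESR1, chr6:151806946-151807195, plus strand: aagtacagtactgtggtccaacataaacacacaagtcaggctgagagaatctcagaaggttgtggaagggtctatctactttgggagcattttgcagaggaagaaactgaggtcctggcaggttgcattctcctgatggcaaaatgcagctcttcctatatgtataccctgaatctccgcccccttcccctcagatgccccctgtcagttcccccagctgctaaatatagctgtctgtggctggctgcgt
GATA3, chr10:8045083-8045332, plus strand: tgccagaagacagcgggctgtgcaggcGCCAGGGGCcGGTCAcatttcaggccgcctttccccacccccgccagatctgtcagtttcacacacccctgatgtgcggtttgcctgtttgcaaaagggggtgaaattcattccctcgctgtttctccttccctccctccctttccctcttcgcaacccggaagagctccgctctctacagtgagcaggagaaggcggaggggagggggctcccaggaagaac
FOXA1, chr14:37595349-37595499, minus strand: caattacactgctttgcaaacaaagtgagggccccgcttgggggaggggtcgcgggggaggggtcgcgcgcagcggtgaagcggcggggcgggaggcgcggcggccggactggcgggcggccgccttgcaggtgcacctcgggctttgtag
TFAP2A, chr6:10419660-10419909, minus strand: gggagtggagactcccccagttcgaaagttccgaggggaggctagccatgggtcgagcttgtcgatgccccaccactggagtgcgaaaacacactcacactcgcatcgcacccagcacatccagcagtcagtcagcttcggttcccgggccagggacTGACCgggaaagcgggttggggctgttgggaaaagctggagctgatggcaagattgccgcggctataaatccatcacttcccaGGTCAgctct
The GATA3 stretch held 1 AP-2 match and 1 GGTCA match, and the TFAP2A stretch held 2 GGTCA matches, one on each strand. The ESR1 and FOXA1 stretches held 0 matches to any of the 4 motifs. Of 35116 windows of 250 bases, 32.6% held GGTCA, 19.8% held GCCNNNGGC, 20.4% held GATAA and 2.98% held TGTTTAC. At the 151 bases of the FOXA1 stretch the shares were 20.8%, 11.6%, 14.1% and 1.82%. A match is a run of letters and shows no binding, and its absence says only that these letters are not in this window. The GATA3 and TFAP2A stretches lie next to the annotated gene, and those of ESR1 and FOXA1 lie within the annotated gene, outside its exons. ESR1 and GATA3 each have 6 windows in the RefSeq table and TFAP2A 2, of which 1 is shown. The ESR1 window was chosen by hand beside a cluster of starts. Those of GATA3 and TFAP2A were the first listed with enough bases outside exons. The matches describe these stretches only, and other starts of the same genes were not searched.

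FOXA1 (ENSG00000129514.5, chromosome 14, 37589984 to 37596059, minus strand, GENCODE 29 on hg38) was steady under antibody and lower in the pools. Its levels in replicates 1, 2 and 3 were 517, 486 and 478 CPM in untreated cells, 509, 455 and 487 CPM with trastuzumab, and 512, 515 and 527 CPM with both antibodies. Those 9 libraries overlapped between neighbouring groups. In the pools it stood at 343, 381 and 414 CPM in BT-TR1, 408, 367 and 363 CPM in BT-TR2, 321, 326 and 304 CPM in BT-TPR1 and 323, 317 and 332 CPM in BT-TPR2. Every pool library was below every library of the untreated and antibody-treated groups, and the 6 libraries of the pools resistant to both antibodies were below the 6 of the trastuzumab-resistant pools. That difference between the resistance classes was not tested. Against untreated cells FOXA1 fell by 0.38 ± 0.09 (log2 fold change ± standard error) in BT-TR1 (edgeR adjusted p = 0.0019), 0.38 ± 0.09 in BT-TR2 (adjusted p = 0.00312), 0.64 ± 0.09 in BT-TPR1 (adjusted p = 2.27e-05) and 0.61 ± 0.09 in BT-TPR2 (adjusted p = 2.88e-05). These are bulk samples, in which fewer cells with a transcript and less transcript per cell cannot be told apart. With antibody the log2 changes were -0.03 ± 0.09 for trastuzumab (edgeR adjusted p = 0.886) and 0.07 ± 0.09 for both (adjusted p = 0.652), which did not pass. The second changed sign under the GC correction, to -0.00 (adjusted p = 0.994), and the first without untreated replicate 1 or trastuzumab replicate 2. Each of the 4 FOXA1 falls held in 17 of 17 alternatives.

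GATA3 (ENSG00000107485.15, chromosome 10, 8045378 to 8075203, plus strand) had the largest range after PGR. It stood at 191, 163 and 180 CPM in untreated cells, 155, 166 and 167 CPM with trastuzumab and 129, 157 and 155 CPM with both antibodies. In BT-TR1 it stood at 60.4, 59.2 and 58.1 CPM, the lowest group, with all 3 libraries below the remaining 18. In BT-TR2 the libraries held 110, 83.0 and 91.6 CPM, in BT-TPR1 92.3, 76.3 and 74.5 CPM and in BT-TPR2 99.9, 93.5 and 90.7 CPM. These 3 pools overlapped with their neighbours in order and lay below every untreated or antibody-treated library. GATA3 fell by 1.59 ± 0.12 on the log2 scale in BT-TR1 (edgeR adjusted p = 7.49e-09), 0.91 ± 0.11 in BT-TR2 (adjusted p = 1.12e-05), 1.14 ± 0.11 in BT-TPR1 (adjusted p = 7.99e-07) and 0.91 ± 0.11 in BT-TPR2 (adjusted p = 7.42e-06), in 17 of 17 alternatives each. With trastuzumab the log2 change was -0.13 ± 0.11 (edgeR adjusted p = 0.545) and with both antibodies -0.28 ± 0.11 (adjusted p = 0.113). With replicate number as a block the second passed (-0.27, adjusted p = 0.0329, range over the alternatives 0.011 to 0.358), although replicate 2 did not pair there, while replicates 1 and 3 did. BT-TR2 was higher than BT-TR1 by 0.68 ± 0.12 on the log2 scale (edgeR adjusted p = 0.00178), while BT-TPR2 and BT-TPR1 differed by 0.22 ± 0.11 (adjusted p = 0.386).

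ESR1 (ENSG00000091831.21, chromosome 6, 151656691 to 152129619, plus strand) was highest in untreated cells, at 75.3, 81.1 and 88.1 CPM. With trastuzumab its libraries held 66.4, 73.2 and 79.0 CPM, which overlapped with untreated cells, and with both antibodies 51.3, 58.8 and 60.5 CPM, which did not. All 3 libraries with both antibodies lay below those with trastuzumab alone. The log2 change between these treatments, -0.36 ± 0.10, did not pass (edgeR adjusted p = 0.154), but it did with replicate number as a block (-0.36, adjusted p = 0.00765, range 0.00221 to 1.0). In the pools the libraries held 38.3, 40.9 and 45.5 CPM in BT-TR1, 42.8, 45.2 and 44.8 CPM in BT-TR2, 58.7, 57.9 and 55.7 CPM in BT-TPR1 and 40.8, 48.3 and 48.0 CPM in BT-TPR2. BT-TPR1 was at the level of cells under both antibodies, and the other 3 pools overlapped in order and lay lower. ESR1 fell in each of the 4 pools, by 0.97 ± 0.10, 0.88 ± 0.10, 0.50 ± 0.10 and 0.83 ± 0.10 on the log2 scale in that order, and by 0.52 ± 0.10 with both antibodies. The edgeR adjusted p-values were 1.18e-06, 4.39e-06, 0.00119, 5.8e-06 and 0.00206. The BT-TPR1 call ended with scaling to library size alone (edgeR adjusted p = 0.0838, range 1.11e-06 to 0.0838) and that for both antibodies when only the groups compared were fitted (adjusted p = 0.0576, range 3.81e-07 to 0.0576). Between the dual-resistant pools the log2 difference of BT-TPR2 from BT-TPR1 was -0.33 ± 0.10 (edgeR adjusted p = 0.0895). With the replicate block it was also -0.33 and passed (adjusted p = 0.00521, range 0.00147 to 0.538).

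PGR (ENSG00000082175.14, chromosome 11, 101029624 to 101130524, minus strand) split the pools. Its libraries held 451, 540 and 573 CPM in untreated cells, 578, 836 and 908 CPM with trastuzumab and 365, 460 and 540 CPM with both antibodies. They held 663, 784 and 673 CPM in BT-TPR1, above all untreated libraries. In BT-TR1 they held 165, 213 and 200 CPM, in BT-TR2 183, 219 and 211 CPM and in BT-TPR2 155, 196 and 183 CPM, so these 3 pools overlapped with each other and lay below every other library. BT-TPR2 was lower than BT-TPR1 by 1.99 ± 0.17 on the log2 scale (edgeR adjusted p = 8.3e-07), in 17 of 17 alternatives. Against untreated cells PGR fell by 1.44 ± 0.17 in BT-TR1 (edgeR adjusted p = 4.4e-06), 1.35 ± 0.17 in BT-TR2 (adjusted p = 1.08e-05) and 1.55 ± 0.17 in BT-TPR2 (adjusted p = 1.59e-06). The BT-TPR1 log2 change of 0.44 ± 0.17 did not pass (edgeR adjusted p = 0.0569), but it did with the replicate block (0.45, adjusted p = 0.000369, range 0.000369 to 0.229). PGR rose with trastuzumab by 0.57 ± 0.17 on the log2 scale (edgeR adjusted p = 0.0428), and was lower with both antibodies than with trastuzumab alone by 0.77 ± 0.17 (adjusted p = 0.0291). Those 2 calls were weak as reported: they held in 9 of 17 and 11 of 17 alternatives. The first ended without untreated replicate 1, 2 or 3 and without trastuzumab replicate 2 or 3 (edgeR adjusted p = 0.134, 0.0961, 0.063, 0.131 and 0.218, range 0.000107 to 0.218). The second ended without trastuzumab replicate 2 or 3 (edgeR adjusted p = 0.147 and 0.242), or when replicate 1 or 2 with both antibodies was left out (0.23 and 0.139), range 2.91e-06 to 0.277. With the replicate block and all libraries the 2 log2 changes were 0.56 (edgeR adjusted p = 0.000107) and -0.76 (adjusted p = 7.42e-06). The replicate numbers paired the libraries in both of these comparisons. In every group replicate 1 was the lowest PGR library, by 0.132 to 0.591 on the log2 scale below the mean of replicates 2 and 3, and PGR has a GC content of 41.4% over its exons; the part of replicate 1 in the PGR values was not tested beyond the block and the libraries left out.

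TFAP2A (ENSG00000137203.10, chromosome 6, 10393186 to 10419659, minus strand) was lower under antibody than in untreated cells. It stood at 83.5, 91.2 and 84.2 CPM in untreated cells, 64.6, 64.1 and 63.6 CPM with trastuzumab and 61.1, 63.4 and 63.3 CPM with both antibodies. The antibody-treated libraries lay close together and did not overlap with untreated cells. TFAP2A fell by 0.43 ± 0.09 on the log2 scale with trastuzumab (edgeR adjusted p = 0.00492) and by 0.46 ± 0.09 with both antibodies (adjusted p = 0.00162). The pools resistant to both antibodies overlapped with untreated cells, at 89.5, 92.1 and 80.0 CPM in BT-TPR1 and 79.1, 85.8 and 81.7 CPM in BT-TPR2. Their log2 changes were 0.01 ± 0.09 and -0.07 ± 0.09 (edgeR adjusted p = 0.919 and 0.575), with a sign that changed between settings. BT-TR1, at 64.9, 72.7 and 78.1 CPM, and BT-TR2, at 78.6, 69.3 and 75.2 CPM, lay between. TFAP2A fell in BT-TR1 by 0.26 ± 0.09 (edgeR adjusted p = 0.0214, in 9 of 17 alternatives). In BT-TR2 the log2 change was -0.22 ± 0.09 (edgeR adjusted p = 0.0785), and with the replicate block it passed (-0.21, adjusted p = 0.0311, range 0.00457 to 0.463). The trastuzumab call ended when only the groups compared were fitted (edgeR adjusted p = 0.116) or with no filter on low counts (adjusted p = 0.0777), range 2.65e-05 to 0.116, and that for both antibodies in the first of these (0.0607), range 2.2e-06 to 0.0607.

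TFAP2C (ENSG00000087510.6, chromosome 20, 56629302 to 56639283, plus strand) stood at 242, 254 and 255 CPM in untreated cells, 302, 291 and 305 CPM with trastuzumab and 260, 278 and 305 CPM with both antibodies. Each antibody-treated library was above the 3 untreated ones, the opposite side from TFAP2A. The log2 changes were 0.26 ± 0.09 with trastuzumab (edgeR adjusted p = 0.0948) and 0.17 ± 0.09 with both antibodies (adjusted p = 0.252), which did not pass. With the replicate block the trastuzumab change passed (0.26, adjusted p = 0.0107, range 0.0107 to 0.428). The pools held 186, 203 and 226 CPM in BT-TR1, 208, 223 and 218 CPM in BT-TR2, 213, 242 and 225 CPM in BT-TPR1 and 255, 271 and 294 CPM in BT-TPR2. TFAP2C fell in BT-TR1 by 0.29 ± 0.09 on the log2 scale (edgeR adjusted p = 0.0166, in 10 of 17 alternatives). Its BT-TR2 log2 change was -0.21 ± 0.09 (edgeR adjusted p = 0.0993; with the replicate block -0.21, adjusted p = 0.0216, range 0.00176 to 0.504). BT-TPR2 lay above BT-TPR1 in all 3 libraries, by 0.27 ± 0.09 (edgeR adjusted p = 0.132; with the replicate block 0.27, adjusted p = 0.0171, range 0.0171 to 0.568). The BT-TR1 calls of the AP-2 genes were near the threshold: leaving out BT-TR1 replicate 1 gave -0.16 for TFAP2A (edgeR adjusted p = 0.169, range 0.000547 to 0.212) and -0.19 for TFAP2C (adjusted p = 0.134, range 0.000184 to 0.134), and both also ended without BT-TR1 replicate 2 (0.0694 and 0.0748) or untreated replicate 2 (0.112 and 0.0628). The TFAP2A call ended without untreated replicate 1 too (edgeR adjusted p = 0.0554), and the TFAP2C call without untreated replicate 3 (adjusted p = 0.0621).

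SPDEF (ENSG00000124664.10, chromosome 6, 34537802 to 34556333, minus strand) was the most variable gene between libraries of 1 group. Its libraries held 245, 138 and 165 CPM in untreated cells, 147, 128 and 128 CPM with trastuzumab and 145, 154 and 99.6 CPM with both antibodies. The pools held 139, 94.7 and 79.8 CPM in BT-TR1, 334, 177 and 181 CPM in BT-TR2, 271, 179 and 152 CPM in BT-TPR1 and 223, 156 and 124 CPM in BT-TPR2. Every group overlapped with the next in order of mean, and in 7 of 7 groups replicate 1 was above the mean of replicates 2 and 3, by 0.20 to 0.90 on the log2 scale. The exons of SPDEF have a GC content of 64.6%, above that of 97.0% of tested genes. SPDEF fell in BT-TR1 by 0.80 ± 0.29 on the log2 scale (edgeR adjusted p = 0.0339), with libraries that overlapped with untreated cells. After each library was corrected for GC content the direction turned, to 0.27 (edgeR adjusted p = 0.0233, range 3.22e-07 to 0.206), and the BT-TR1 call also ended without untreated replicate 1 (0.206), BT-TR1 replicate 2 (0.105) or BT-TR1 replicate 3 (0.15). BT-TR2 was higher than BT-TR1 by 1.14 ± 0.30 (edgeR adjusted p = 0.0165). With the GC correction that difference shrank to 0.34 (edgeR adjusted p = 0.0254). The call ended without BT-TR1 replicate 2 (0.0735), BT-TR1 replicate 3 (0.0958) or BT-TR2 replicate 1 (edgeR adjusted p = 0.136, range 1.25e-12 to 0.136). The other SPDEF changes did not pass as reported. With the replicate block the falls with trastuzumab (-0.40, edgeR adjusted p = 0.0308, range 0.0308 to 0.815) and with both antibodies (-0.43, adjusted p = 0.0178, range 0.0178 to 0.98) passed. For both antibodies replicate 2 did not pair, while replicates 1 and 3 did, and for trastuzumab all 3 paired. With the GC correction SPDEF was higher in BT-TR2 by 0.61 (edgeR adjusted p = 3.16e-05, range 1.9e-06 to 0.951), as it was in BT-TPR1 by 0.38 (adjusted p = 0.00238, range 0.00053 to 0.998). The BT-TPR2 value was then 0.27 (edgeR adjusted p = 0.0233, range 0.00998 to 0.958). Across genes, the BT-TR1 change correlated with GC content at r = -0.478 and the difference of BT-TR2 from BT-TR1 at r = 0.629, and the part of this in the SPDEF values was not tested beyond the correction.

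The 4 comparisons of pools with untreated cells and the 2 of antibody with untreated cells share the same 3 untreated libraries, and are given side by side. In BT-TR1, 7 of the 7 genes fell, where 43.6% of all tested genes were called and 22.3% were called lower; the median log2 change was -0.80 against -0.01 over all genes. With 1 library left out 4 to 6 of the 7 were called, and with the GC correction SPDEF was called higher. In BT-TR2, ESR1, PGR, GATA3 and FOXA1 fell, 4 of 7 against a background of 24.9% called and 12.1% called lower, with a median of -0.38. BT-TPR1 had 3 of 7 lower, ESR1, GATA3 and FOXA1, where 27.3% of genes were called and 14.4% called lower, and a median of -0.14. BT-TPR2 had 4 of 7 lower, the same genes as BT-TR2, where 31.6% of genes were called and 16.0% called lower, and a median of -0.61. With trastuzumab 1 gene rose, PGR, and 1 fell, TFAP2A, at a background of 7.48% (3.71% higher and 3.78% lower). With both antibodies ESR1 and TFAP2A fell, 2 of 7 at a background of 12.4% (6.02% lower), and against trastuzumab alone PGR was lower, 1 of 7 at 0.867% (0.38% lower). Between the trastuzumab-resistant pools 2 of 7 differed, GATA3 and SPDEF, both higher in BT-TR2, at a background of 17.7% (9.64% higher). Between the dual-resistant pools 1 of 7 differed, PGR, at 3.45% (1.81% lower). With replicates 2 and 3 alone 6 fell in BT-TR1, 5 in BT-TR2 and 4 in BT-TPR2, and in BT-TPR1 3 fell and PGR rose, where 8062, 5817, 7790 and 6345 of 17650 genes were called.

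**Figure D2:**
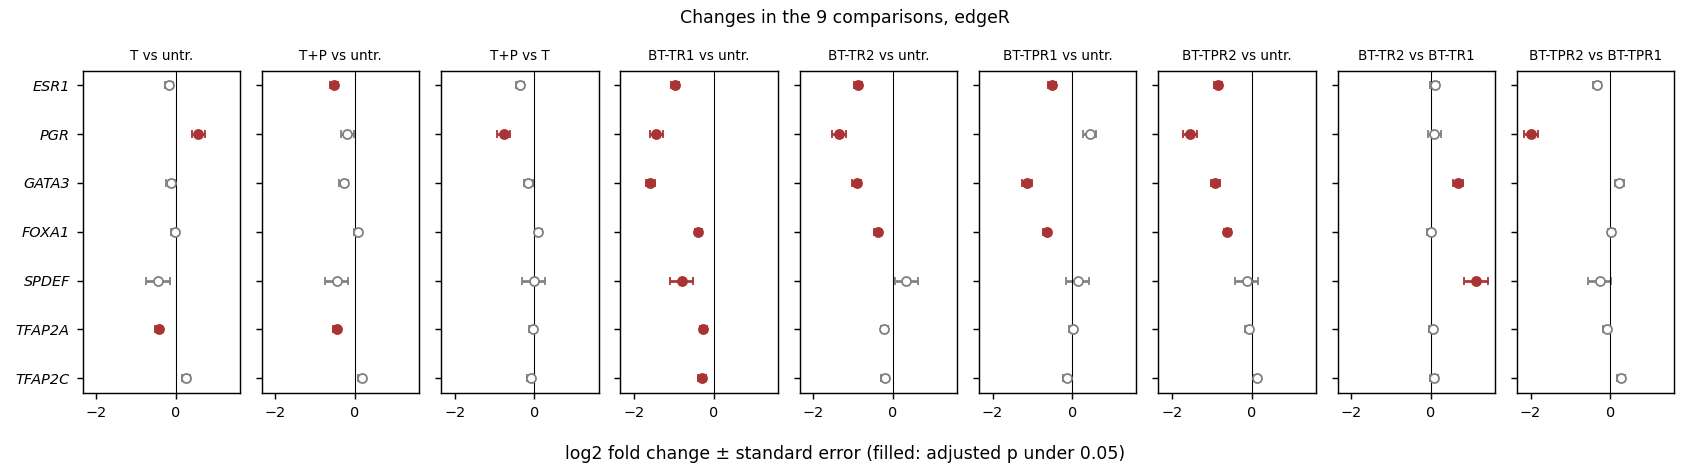
Log2 fold change of each gene in the 9 comparisons, with its standard error; filled points have an edgeR adjusted p under 0.05, and T stands for trastuzumab and T+P for both antibodies. In BT-TR1 against untreated cells 7 of 7 points are filled and left of 0, and in BT-TPR2 against BT-TPR1 the filled point is PGR at -1.99.

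**Figure D3:**
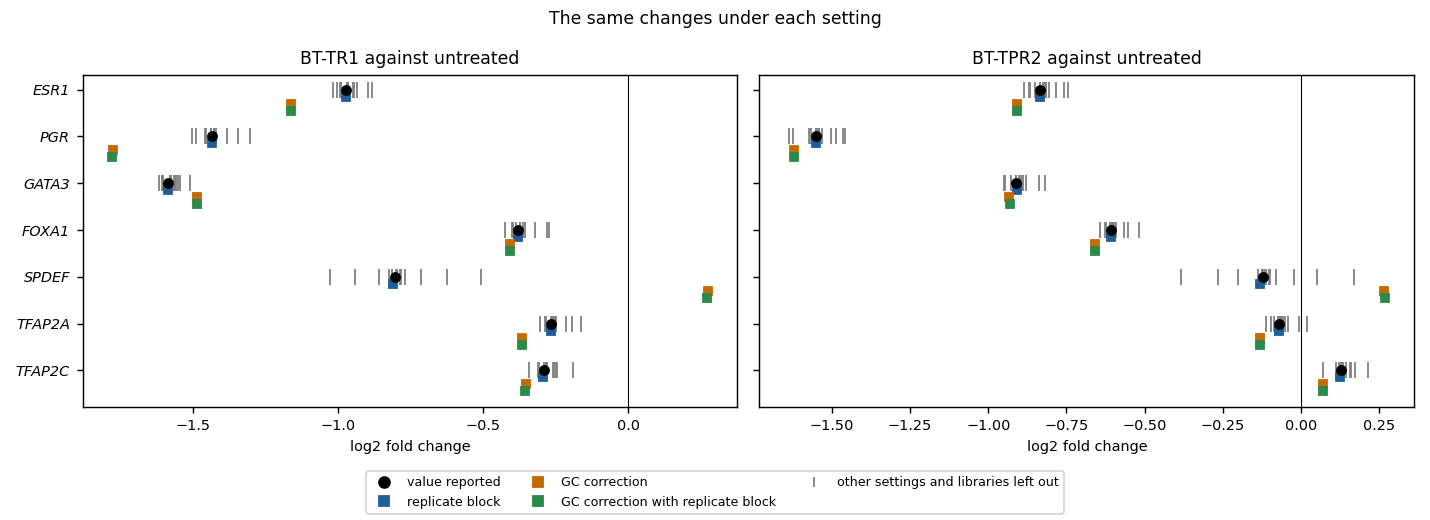
Log2 fold change of each gene against untreated cells in BT-TR1 and BT-TPR2 as reported (black), with the replicate block, with the GC correction, with both, and under the other settings and libraries left out (grey ticks). ESR1, PGR, GATA3 and FOXA1 stay left of 0 in both pools under every setting run, and SPDEF moves from -0.80 to 0.27 in BT-TR1 with the GC correction.

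The levels of the genes followed each other in part across the 7 group means. Pearson's r of log2 CPM over the 7 means was 0.85 between ESR1 and GATA3, 0.84 between ESR1 and PGR and 0.80 between GATA3 and FOXA1. It was -0.59 between FOXA1 and TFAP2A and -0.39 between the AP-2 genes. These are descriptions of 7 points that share libraries and scaling. Among 7632 other genes with a mean of at least 5 CPM and a difference among the groups, the pattern of ESR1 was nearest to those of NRCAM (r = 0.988), SMPDL3B (0.988) and MAN1A1 (0.984). PGR was nearest to TWIST1 (r = 0.985), SLC15A2 (0.976) and ADCY1 (0.97). The nearest to GATA3 were NAT14 (r = 0.997), GRM4 (0.994) and CTC1 (0.99), and to FOXA1 ZDHHC4 (0.988), ABCA4 (0.988) and LINC01128 (0.987). SPDEF was nearest to DHPS (r = 0.999) and CLPP (0.995). For TFAP2A they were BANP (r = 0.971), CRNDE (0.963) and PSRC1 (0.956), and for TFAP2C PLXNA4 (0.982), CAP2 (0.979) and WTAP (0.974).

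Genes that the estrogen receptor is known to induce were followed as a list of 20. Of these, 14 fell and 1 rose in BT-TR1, with a median log2 change of -1.18, and 14 fell in BT-TR2, with a median of -0.90. In BT-TPR1 10 fell and 1 rose (median -0.42), and in BT-TPR2 13 fell and 2 rose (median -0.57). Of all tested genes 22.3%, 12.1%, 14.4% and 16.0% were called lower in these pools, in the same order. With trastuzumab 1 fell and 1 rose, and with both antibodies 3 fell, where 3.78% and 6.02% of all tested genes were called lower. With the GC correction the target falls numbered 15, 17, 10 and 13 in the 4 pools, in that order, 4 with trastuzumab and 8 with both antibodies. Of 17554 genes 3949, 3306, 3538 and 3893 were then called lower in the pools, and 1601 and 2105 with the antibody treatments. With the replicate block the target falls numbered 15, 17, 12 and 16 in the pools, 5 with trastuzumab and 12 with both antibodies. Of 17650 genes 5084, 4027, 4262 and 4685 were then called lower in the pools, and 2604 and 3149 with the antibody treatments.

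STC2, which encodes the secreted glycoprotein stanniocalcin 2, fell in each of the 4 pools, by 1.75 ± 0.12, 1.60 ± 0.12, 2.01 ± 0.12 and 1.64 ± 0.12 on the log2 scale, but rose by 0.46 ± 0.12 with trastuzumab (edgeR adjusted p = 0.0234). AREG, which encodes the EGFR ligand amphiregulin, fell by 1.31 ± 0.22 with both antibodies (edgeR adjusted p = 0.000571) and in the 4 pools, with log2 changes of -0.93 ± 0.22, -1.61 ± 0.23, -1.74 ± 0.23 and -1.75 ± 0.23. The largest fall in BT-TR1 was that of CTSD, the gene of the lysosomal protease cathepsin D, at 2.39 ± 0.44 on the log2 scale. CTSD has a GC content of 64.0%, above that of 96.1% of tested genes. Across genes the BT-TR1 change correlated with GC content at r = -0.478, and the GC-corrected CTSD value is not reported here. CXCL12, the gene of a chemokine, followed PGR in the pools. It held 47.8, 51.0 and 53.1 CPM in untreated cells and 49.2, 46.1 and 52.1 CPM in BT-TPR1, but 22.1, 20.9 and 22.6 CPM in BT-TPR2, 18.0, 15.3 and 16.5 CPM in BT-TR2 and 11.1, 12.6 and 12.0 CPM in BT-TR1. The BT-TPR1 libraries overlapped with untreated cells and the other pools lay below. CXCL12 was lower in BT-TPR2 than in BT-TPR1 by 1.17 ± 0.10 on the log2 scale (edgeR adjusted p = 6.19e-07). GREB1, a coactivator of the receptor, was lower by 0.57 ± 0.11 in the same comparison (edgeR adjusted p = 0.00427), and EGR3, an immediate early transcription factor gene, was higher by 1.77 ± 0.26 (adjusted p = 0.000321). Of the 20 targets, 1 rose and 2 fell between these pools, with a median of -0.07.

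**Figure D4:**
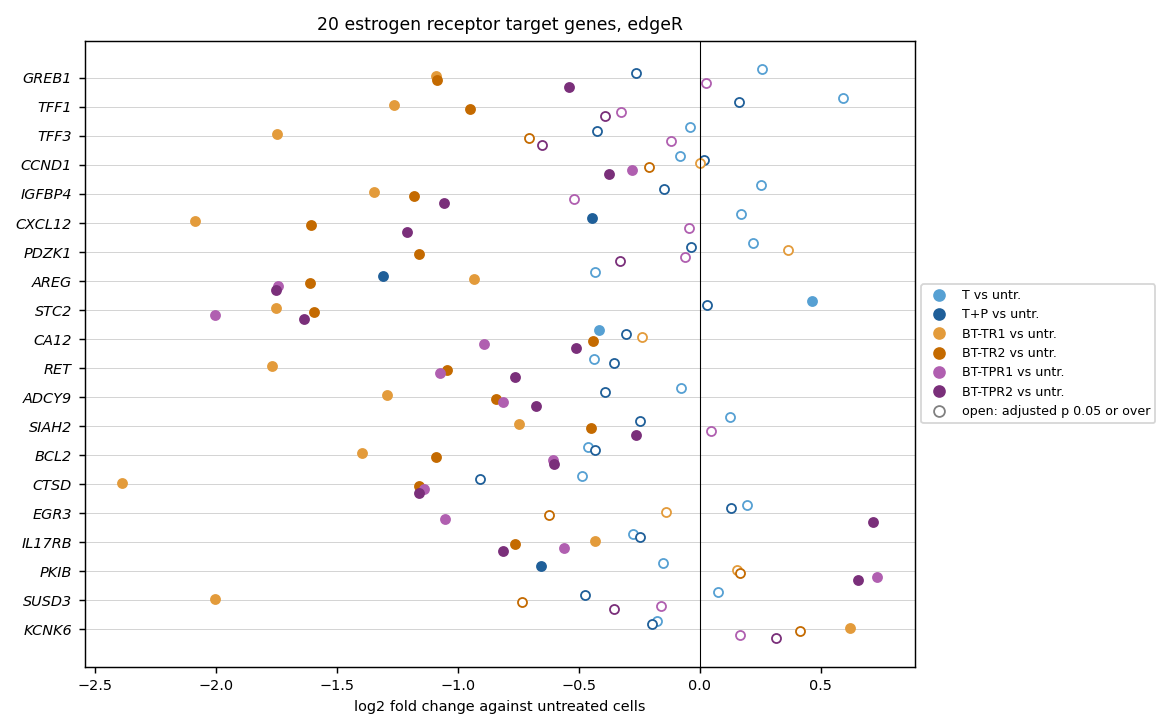
Log2 fold change of 20 estrogen receptor target genes against untreated cells for both antibody treatments and the 4 pools; filled points have an edgeR adjusted p under 0.05. Most filled points lie left of 0, and CXCL12 and GREB1 in BT-TPR1 lie near 0 while they are lower in the other pools.

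Other receptors of the family moved in different directions. Of 14 tested steroid and nuclear receptor genes, 3 rose and 7 fell in BT-TR1, 4 rose and 3 fell in BT-TR2, 4 rose in BT-TPR1, and 4 rose and 2 fell in BT-TPR2. With each antibody treatment 2 rose. Of all tested genes 43.6%, 24.9%, 27.3% and 31.6% were called in the 4 pools and 7.48% and 12.4% with the antibody treatments. NR3C1, the glucocorticoid receptor gene, was low in untreated cells at 6.04, 8.74 and 7.89 CPM, and stood at 12.3, 17.1 and 17.0 CPM in BT-TR1, 13.4, 14.7 and 17.9 CPM in BT-TR2, 16.2, 18.9 and 18.6 CPM in BT-TPR1 and 23.3, 30.5 and 29.9 CPM in BT-TPR2. Every pool library was above the untreated ones. NR3C1 rose in the 4 pools, by 1.02 ± 0.18, 1.02 ± 0.18, 1.24 ± 0.18 and 1.88 ± 0.18 on the log2 scale, with trastuzumab by 0.59 ± 0.18 (edgeR adjusted p = 0.0465, in 9 of 17 alternatives) and with both antibodies by 0.68 ± 0.18 (adjusted p = 0.0153, in 14 of 17). NR3C2, the mineralocorticoid receptor gene, rose with trastuzumab by 1.04 ± 0.16 (edgeR adjusted p = 0.000593). The retinoic acid receptor gene RARA fell in BT-TR1 by 1.58 ± 0.24 (edgeR adjusted p = 6.03e-05), and RARG rose in BT-TPR2 by 1.14 ± 0.21 (adjusted p = 0.000421). RARA has a GC content of 63.0%, above that of 94.7% of tested genes, and its GC-corrected value is not reported here. PPARG was near the level of 1 read in untreated cells, at 0.0549, 0.0517 and 0.0907 CPM, and held 2.53, 2.83 and 1.92 CPM in BT-TPR1. It was tested because of groups in which it is high, so these levels are given with no test.

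Among the paralogs, 5 of 11 genes had enough reads to test, of which 2 fell in BT-TR1, 1 rose and 1 fell in BT-TR2, 1 rose in BT-TPR1 and 2 rose in BT-TPR2, where 43.6%, 24.9%, 27.3% and 31.6% of all tested genes were called. ESR2, the gene of estrogen receptor beta, was tested at group means of 0.345 to 0.731 CPM, and its changes did not pass in edgeR. GATA2 and GATA4 followed GATA3 in BT-TR1, with falls of 1.27 ± 0.17 (edgeR adjusted p = 2.09e-05) and 1.30 ± 0.15 (adjusted p = 2.69e-06), and GATA4 fell by 0.62 ± 0.14 in BT-TR2 (adjusted p = 0.00337). GATA6 went the other way in BT-TPR1, where it rose by 0.43 ± 0.11 (edgeR adjusted p = 0.00519). The antisense RNAs GATA3-AS1 and TFAP2A-AS1 were too low to test, at group means of at most 0.067 CPM and between 0.218 and 0.439 CPM. Whether the counting used strand is not given in the sources used here, so reads of GATA3 and TFAP2A cannot be told apart from those of their antisense partners.

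Of 15 other epithelial transcription factor genes tested, 4 rose and 3 fell in BT-TR1, 3 rose and 3 fell in BT-TR2, 2 rose and 2 fell in BT-TPR1, and 3 rose and 5 fell in BT-TPR2. Of all tested genes 43.6%, 24.9%, 27.3% and 31.6% were called in these pools, so the counts in BT-TR1 and BT-TPR1 lie near the background. ELF5, a factor of the luminal progenitor and alveolar lineage, rose in each of the 4 pools by 1.01 ± 0.11, 0.72 ± 0.11, 0.90 ± 0.11 and 0.86 ± 0.11 on the log2 scale, opposite to FOXA1 and GATA3. ID4, which encodes an inhibitor of DNA binding, fell by 0.75 ± 0.29, 1.33 ± 0.28, 2.72 ± 0.33 and 3.68 ± 0.36, though the BT-TR1 call held in 10 of 17 alternatives. Of 15 tested estrogen receptor coregulators 1 rose in each pool, and 5, 2, 3 and 4 fell. These counts lie near the background of 43.6%, 24.9%, 27.3% and 31.6% of all tested genes called in these pools. The one that rose was NCOA3, a coactivator gene, by 0.89 ± 0.14 in BT-TR1 (edgeR adjusted p = 7.33e-05), 0.43 ± 0.14 in BT-TR2 (adjusted p = 0.0258), 0.42 ± 0.14 in BT-TPR1 (adjusted p = 0.0283) and 0.46 ± 0.14 in BT-TPR2 (adjusted p = 0.0148), in 17, 12, 13 and 13 of 17 alternatives. The corepressor gene TLE3 fell in BT-TPR2 by 0.57 ± 0.11 (edgeR adjusted p = 0.000668).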

How the data were processed

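RNA-seq of 21 BT474 libraries was used in 7 groups of 3. The deposited table holds raw read counts per gene, and a second deposited table holds variance-stabilized values on a log2 scale. Per the submitters' processing notes, Bowtie2, featureCounts, DESeq2 and build hg38 were used by the authors. Their versions, roles and settings are not given in the sources used here.

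In edgeR 4.0.16 (R 4.3.3), filterByExpr with the groups removed genes with few counts (at least 10 per library and 15 in total were asked). TMM scaling and 1 quasi-likelihood fit of the 21 libraries followed, with 14 residual degrees of freedom. P-values were adjusted by Benjamini-Hochberg over the 17650 tested genes, and calls needed an adjusted p under 0.05. CPM are given per library, and log2 fold changes with standard errors. Exon lengths, GC content and positions came from GENCODE 29. Of each further list, up to 3 called genes with the largest log2 change were named in a comparison. The likeness search used genes of at least 5 CPM, and the 3 genes with the highest r were named. Some genes that these rules name are not reported here. The members and lists were chosen with earlier results of these data known.

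Each result was also run unfiltered, strictly filtered (1 CPM in 3 libraries), with RLE scaling, by library size alone, in DESeq2 1.42.0, in limma 3.58.1 on the deposited log2 values, within the groups compared, blocked by replicate number, corrected for GC content by a spline (5 degrees of freedom) over 17554 genes, with both of these, from replicates 2 and 3 alone, and each library of the compared groups left out. Replicate numbers paired the libraries in 7 of 9 comparisons, by correlations of deviations between libraries of the same number. The rule asked each of the 3 correlations to exceed a set positive value. It was not met for both antibodies against untreated cells (r = 0.564, -0.0106 and 0.412) or BT-TR2 against BT-TR1 (r = 0.53, 0.0732 and 0.35). In both, replicate 2 alone fell short. Between replicates the chi-square per degree of freedom, near 1 under counting error alone, ran from 5.85 to 83.2, so replicate spread sets the precision. In data simulated for trastuzumab against untreated cells over 17650 genes, edgeR recovered 20.9% of 1.5-fold, 65.67% of 2-fold and 93.94% of 4-fold changes, and 7 of 127 calls were false. The simulated counts were drawn independently for each library. They lack the deviation of replicate 1 and its link to GC content, so these rates do not cover it.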

Additional observations from a re-analysis of the deposited data

Results flagged for a closer look

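Pools of the same resistance class differed from each other in 3 results, by the test of the contrast between the pools. BT-TR2 was above BT-TR1 by 0.68 on the log2 scale for GATA3 and by 1.14 for SPDEF. The log2 difference of BT-TPR2 from BT-TPR1 was -1.99 for PGR. The GATA3 and PGR differences were called in 17 of 17 alternatives each. The SPDEF difference was called in 14 of 17, and with the GC correction it was 0.34 in place of 1.14.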

How the results depend on the processing

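Each log2 change of the 7 genes in the 9 comparisons was recomputed, which gave 693 values under other settings and 378 with 1 library left out. Of the first, 610 kept direction and side of the threshold, 42 newly passed, 17 no longer passed and 24 changed sign. Of the second, 337 kept both, 23 no longer passed and 18 changed sign. The test for any difference among the groups kept its calls except 2 of SPDEF with 1 library left out. The falls of GATA3 and FOXA1 in each of the 4 pools were among the calls that held in 17 of 17 alternatives. Sign changes were of values near 0, except for SPDEF. The cause of the moves below was not tested.

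The number of the 7 genes called was, with the replicate block, 4 for trastuzumab against untreated cells, 4 for both antibodies against untreated cells, 2 for both against trastuzumab and 3 for BT-TPR2 against BT-TPR1. With the GC correction it was 2 for both against trastuzumab, 7 for BT-TR2 (with SPDEF higher), 5 for BT-TPR1 (with SPDEF and PGR higher) and 2 for BT-TPR2 against BT-TPR1, where 6482 and 6778 of 17554 genes were called in BT-TR2 and BT-TPR1. With both of these it was 4 for both antibodies against untreated cells, 2 for both against trastuzumab, 7 for BT-TR2, 5 for BT-TPR1, 4 for BT-TR2 against BT-TR1 and 3 for BT-TPR2 against BT-TPR1. With only the groups compared it was 0 in edgeR for each of the 3 antibody comparisons, where 2 genes had an unadjusted p under 0.05 in each and DESeq2, fitted on all groups, called 3, 2 and 2. With library size alone it was 1 for trastuzumab and 0 in edgeR for both against trastuzumab (2 at an unadjusted p under 0.05), in limma 1 for trastuzumab, and in DESeq2 2 for both against trastuzumab and 2 for BT-TPR2 against BT-TPR1. Of 17650 genes, DESeq2 called 1705 with trastuzumab, 2551 with both antibodies, 209 for both against trastuzumab and 778 for BT-TPR2 against BT-TPR1. Library size alone called 897 with trastuzumab and 119 for both against trastuzumab, and limma 1166 with trastuzumab. The GC correction with replicate block called 3829 of 17554 genes for BT-TR2 against BT-TR1.

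Over all tested genes, with the replicate block the calls numbered 4629 with trastuzumab (1321 without the block), 5750 with both antibodies (2190), 388 for both against trastuzumab (153), 8076 in BT-TR2 (4387), 8364 in BT-TPR1 (4815), 9019 in BT-TPR2 (5575), 7555 for BT-TR2 against BT-TR1 (3129) and 2119 for BT-TPR2 against BT-TPR1 (609). With the GC correction they numbered 2742 with trastuzumab, 3715 with both antibodies, 259 for both against trastuzumab, 1710 for BT-TR2 against BT-TR1 and 1384 for BT-TPR2 against BT-TPR1. With the GC correction and replicate block they numbered 4845, 5850 and 484 in the antibody comparisons, 8412 in BT-TR2, 8702 in BT-TPR1, 9115 in BT-TPR2 and 2719 for BT-TPR2 against BT-TPR1. With replicates 2 and 3 alone they numbered 2492 with trastuzumab, 4021 with both antibodies and 5339 for BT-TR2 against BT-TR1. With only the groups compared they numbered 381, 896 and 55 in the antibody comparisons, 2682 in BT-TR2, 3111 in BT-TPR1, 3060 in BT-TPR2, 1274 for BT-TR2 against BT-TR1 and 197 for BT-TPR2 against BT-TPR1. Library size alone moved the median of all genes in BT-TPR1 to 0.140 on the log2 scale, where 2886 genes were called higher and 1684 lower (2280 and 2535 with TMM). For BT-TR2 against BT-TR1 the calls were 2329 higher and 566 lower with library size alone and 1169 and 541 with the GC correction, against 1701 and 1428.

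With 1 library left out, the genes called numbered 594 to 1175 with trastuzumab, 1109 to 2046 with both antibodies, 80 to 118 for both against trastuzumab, 5395 to 7780 in BT-TR1, 3027 to 3969 in BT-TR2, 3100 to 4516 in BT-TPR1, 3649 to 6430 in BT-TPR2, 562 to 4477 for BT-TR2 against BT-TR1, 351 to 470 for BT-TPR2 against BT-TPR1 and 9187 to 11052 for any difference. Of the 7 genes, 1 to 2, 2 to 2, 0 to 1, 4 to 6, 4 to 4, 3 to 3, 4 to 4, 1 to 2, 1 to 1 and 6 to 7 were called in these comparisons, in that order.

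Log2 changes that turned sign follow. SPDEF turned with the GC correction to 0.27 in BT-TR1, 0.27 in BT-TPR2, 0.0046 with both antibodies and 0.083 for both against trastuzumab, and with the GC correction and replicate block to 0.27, 0.27, 0.0062 and 0.084. It was 0.017 for both against trastuzumab with library size alone. Without 1 library SPDEF ran from -0.14 to 0.16 for both against trastuzumab, -0.38 to 0.17 in BT-TPR2, -0.15 to 0.43 in BT-TPR1, -0.028 to 0.62 in BT-TR2 and -0.52 to 0.016 for BT-TPR2 against BT-TPR1. FOXA1 turned with the GC correction to -0.0011 with both antibodies and -0.011 for BT-TPR2 against BT-TPR1 (-0.0014 and -0.011 with the replicate block as well), and with library size alone to -0.027 for BT-TPR2 against BT-TPR1 and 0.070 for BT-TR2 against BT-TR1. For BT-TR2 against BT-TR1 it was 0.014 with no filter, 0.0041 with only the groups compared and -0.089 to 0.056 without 1 library. With trastuzumab it was -0.053 to 0.016 without 1 library. TFAP2A in BT-TPR1 turned to -0.0046 with the strict filter, -0.0061 with the GC correction, -0.0058 with the replicate block as well and -0.014 with replicates 2 and 3 alone, and was -0.037 to 0.085 without 1 library. It turned to 0.021 in BT-TPR2 with library size alone. For BT-TR2 against BT-TR1 it turned to -0.055 with replicates 2 and 3 alone, and without 1 library it was -0.041 to 0.10, with TFAP2C at -0.0082 to 0.14 and PGR at -0.035 to 0.16. TFAP2C turned to 0.0020 in BT-TPR1 with library size alone.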
